A study of Mus musculus with 2 samples.

Results

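The genes described here are the Rab GTPases and a set of genes that act with them in vesicle traffic. The rule that chose them used gene symbols and no measured value, though it was set with earlier results of these data known. It took every gene whose symbol is Rab followed by its number and at most a short letter and digit suffix, every synaptotagmin-like gene (Sytl), and Mal, Mal2, Snx31, Vps33a, Vamp8, Myo5b, Rab11fip1 and Rab11fip5. This gave 72 of the 29923 genes on the arrays, of which 59 were Rab genes, 5 were Sytl genes and 8 were named singly. They were measured by 103 probes, 412 spots on each array. Each array compared RNA pools from ureters of NMRI mouse embryos at E18.5 directly, in 2 colours: a Pparg-cKO pool with the genotype Pax2-cre/+; Pparg(fl/fl) against a control pool with the genotype Pparg(fl/?). Per the study's methods controls were littermates without cre, whose second allele, not stated in the labels, can by the cross be floxed or wild-type. Replicate 1 held female and replicate 2 male embryos, with the dyes exchanged between the arrays, so that sex, dye orientation and array cannot be told apart. Pax2-cre recombines in the nephric duct and the epithelia that come from it, so the deletion is aimed at the epithelium while the pools also held smooth muscle, fibroblasts, vessels and nerves. Each pool mixed several embryos, and with 1 array per sex the spread between arrays is that between these pairs of pools.

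Rab proteins are small GTPases that switch between a membrane-bound, active form and a cytosolic, inactive form, and each marks particular compartments and recruits the motors, tethers and SNARE proteins that move, dock and fuse vesicles there. The urothelium, which lines the ureter and the bladder, uses this machinery in its superficial cells: uroplakins are packed into plaques, carried to the surface in fusiform vesicles and taken back for degradation in multivesicular bodies. Rab27b and its Sytl effectors, the Rab11a, Rab8a and Myo5b cascade, Mal, Vamp8, Vps33a and Snx31 have been tied to steps of that cycle in the bladder. Pparg encodes a nuclear receptor that regulates transcription.

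The arrays were of like brightness, with a median spot signal of 293 to 334 units over the 4 channels, and between 66.2% and 77.3% of spots were well above background. Positive log2 ratios mean higher in the Pparg-cKO pool in the direction of the deposited ratio table. The dye labels run the opposite way on both arrays: if they are right as written, every "higher" and "lower" here is exchanged, while sizes, counts and p-values stay. The direction used is the likely one, since the study's text and tissue sections give uroplakin genes that direction. The probe for the targeted gene, Pparg, read 12357 against 6113 units in the female and 12930 against 6688 in the male pools, Pparg-cKO given first, a mean log2 ratio of 0.97 ± 0.02 (SD, n = 2). Whether this probe lies inside the deleted exons was not analysed here, so it does not check the labels. By in situ hybridization, the study reports a Pparg mRNA without the deleted exons that was increased in mutant ureters at E18.5. All 10 urothelial and all 5 smooth muscle marker genes looked up were well above background. Of the 4 kidney tubule markers, Slc12a1 and Umod were not in any pool, while Lrp2 and Slc34a1 were in at least 1 pool on both arrays. Lrp2 read 58.9 to 124 units and Slc34a1 7.67 to 13.5 over the pools. The 3 collecting duct markers were also above background, though dim. In pooled tissue, fewer cells of a type and less RNA per cell cannot be told apart.

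Most of the 72 genes differed little between Pparg-cKO and control ureters. No member was at least 1.5-fold apart in the same direction on both arrays with a signal of at least 100 units: 0 of 59 members bright enough, against 1.84% of all genes bright enough, so that the count lies near the background. In limma, over 22499 genes tested, 0 of 72 members had an adjusted p under 0.05 (0.751% of all genes had), and 9 had an unadjusted p under 0.05, against 8.51% of all genes. The lowest adjusted p of a member in limma was 0.168, that of Rab17. The median log2 ratio of the 72 genes was 0.02, against 0.01 over all genes tested, and the median size of the log2 ratio was 0.10 against 0.09. On both arrays 41 of 72 members lay within 1.2-fold of equality, as did 65.3% of all genes tested. With the smaller threshold of 1.2-fold, chosen after seeing the data, 1 member of 59 (Rab3b) was higher on both arrays and 3 (Mal, Rab27a and Rab27b) were lower. The shares of all genes were 2.89% and 3.28%.

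**Figure D1:**
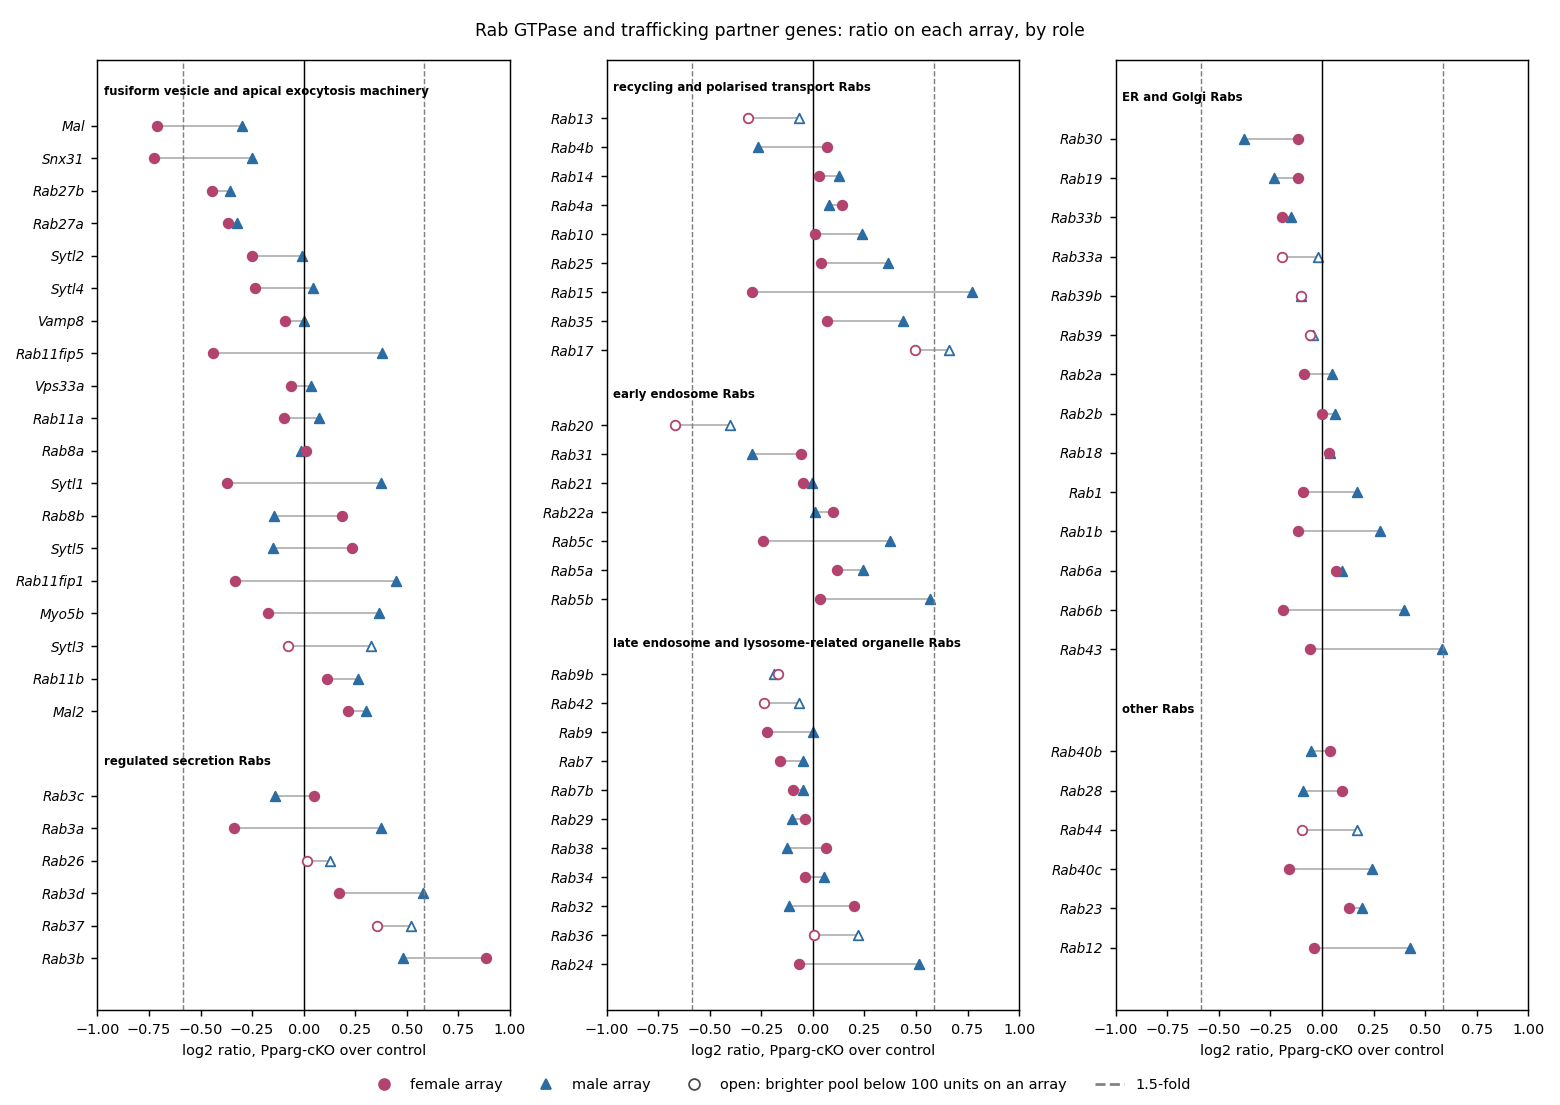
Log2 ratio of Pparg-cKO over control for each of the 72 genes, grouped by role, with circles for the female and triangles for the male array and a grey line joining them; open symbols mark genes whose brighter pool read under 100 signal units on an array, and dashed lines mark 1.5-fold. No filled pair of symbols lies beyond the same dashed line, and Mal, Snx31, Rab27b and Rab27a lie to the left of 0 on both arrays while Rab3b lies to the right.

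The list that comes closest to uroplakin traffic, fusiform vesicle and apical exocytosis machinery, held 19 members. Of these, 5 read lower on both arrays, 2 read higher on both and 12 had opposite signs, and the median log2 ratio was -0.01. Over all genes tested 26.2% read lower on both, 26.6% higher on both and 47.2% had opposite signs, so that the count of lower members by sign alone is at the background. At 1.2-fold 3 of the 18 bright enough were lower on both arrays, against 3.28% of all genes. The 4 members with the lowest values were Mal, Snx31, Rab27b and Rab27a, and these were the 4 of 19 with an unadjusted p under 0.05 (8.51% of all genes), none of which survived adjustment.

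Mal is a proteolipid of apical membranes that takes part in the insertion of uroplakins at the surface. Its probe (chromosome 2, 127458976 to 127459035, mm9) read 9425 units in the female control pool, 6043 in the female Pparg-cKO pool, 9473 in the male control pool and 7177 in the male Pparg-cKO pool. Both Pparg-cKO pools were below both control pools. On the log2 scale the female array gave -0.71 and the male array -0.30, averaging -0.50 ± 0.29 (SD, n = 2), or 1.42-fold, with a limma adjusted p of 0.368. Snx31, a sorting nexin of multivesicular bodies that carries uroplakins towards degradation, read 283 and 170 units in the female control and Pparg-cKO pools and 276 and 210 in the male pools. Again the groups did not overlap. Its log2 ratios were -0.73 and -0.25, averaging -0.49 ± 0.34 (SD, n = 2), and limma gave an adjusted p of 0.436. Both genes passed 1.5-fold on the female array alone.

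Rab27b is the Rab that fusiform vesicles carry to the apical surface. Its brighter probe read 4495 and 3250 units in the female control and Pparg-cKO pools and 4366 and 3406 in the male pools. The log2 ratios, -0.45 and -0.36, were closer to each other than those of Mal and Snx31, and their mean was -0.40 ± 0.06 (SD, n = 2), with a limma adjusted p of 0.344. A second probe of Rab27b gave -0.67 and -0.35, the same sign on both arrays. Rab27a, its close relative, best known from melanosomes and lytic granules, read 118 and 90.0 units in the female and 158 and 124 in the male pools, control first. The male Pparg-cKO pool was above the female control pool, so the signals of the groups overlapped, but within each array the Pparg-cKO pool was lower. Its log2 ratios were -0.36 and -0.32, averaging -0.34 ± 0.03 (SD, n = 2), and limma gave an adjusted p of 0.429.

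**Figure D2:**
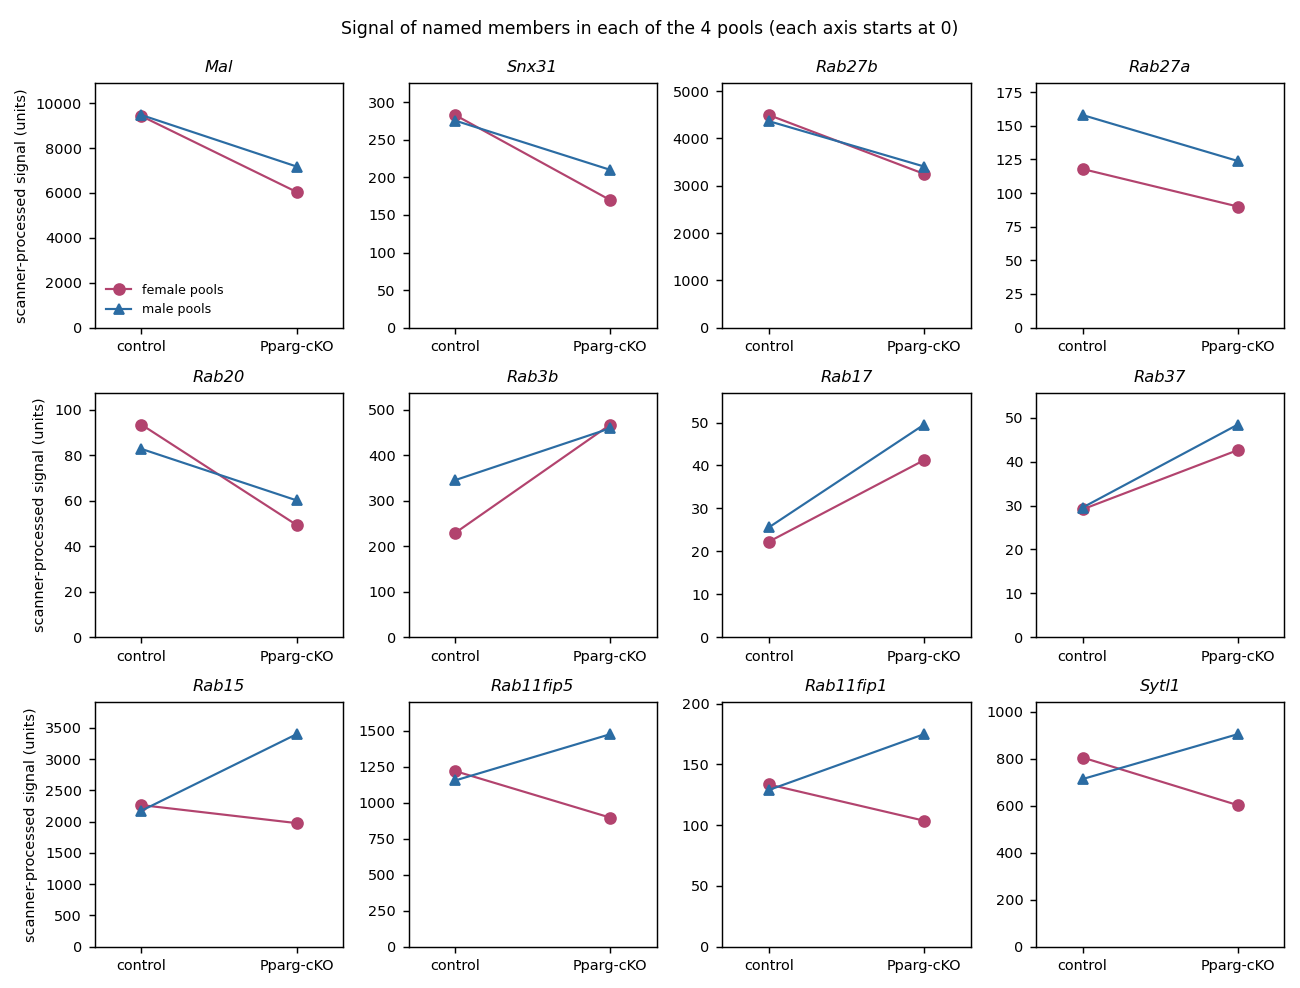
Scanner-processed signal, in units from 0, of 12 named members in the control and Pparg-cKO pools, with a circle and line for the female pair and a triangle and line for the male pair (1 pool per point, no error bars). Lines run down in both sexes for Mal, Snx31, Rab27b, Rab27a and Rab20, up in both for Rab3b, Rab17 and Rab37, and in opposite directions for the bottom row.

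The Rab27 effectors of the Sytl family did not follow Rab27a and Rab27b as a group. Sytl2 read 755 and 639 units in the female and 727 and 700 in the male pools, control first, with log2 ratios of -0.25 and -0.01. Sytl4 gave -0.24 and 0.05, Sytl5 0.23 and -0.15, and Sytl3, which was dim at 42.5 to 57.5 units, -0.07 and 0.33. Sytl1, at -0.37 in the female and 0.37 in the male comparison, is described with the other members that differed between the arrays.

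In the Rab11 and Rab8 branch of apical exocytosis, Rab11a and, by its brighter probe, Rab8a were close to equality on both arrays. The Rab11 effectors Rab11fip1 and Rab11fip5 had opposite signs and are described with the members that differed between the arrays. Rab11a read 3729, 3543, 3525 and 3512 units in the female control, female Pparg-cKO, male control and male Pparg-cKO pools, with log2 ratios of -0.10 and 0.07. Rab8a, which acts after Rab11a in the cascade, gave 0.01 and -0.01, and its second probe -0.20 and 0.15. Rab8b gave 0.18 and -0.14, and Rab11b 0.11 and 0.26. Myo5b, the motor that binds Rab11, read 949 and 878 units in the female and 985 and 1206 in the male pools, control first, with log2 ratios of -0.17 and 0.36, and its 3 probes did not share a sign, with means from -0.04 to 0.23.

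Vamp8 and Vps33a, which act in fusion, were near 0. Vamp8, the vesicle SNARE of fusiform vesicles, read 4725 and 4629 units in the female and 4404 and 4161 in the male pools, control first, and its log2 ratio averaged -0.04 ± 0.06 (SD, n = 2). Vps33a, a Sec1/Munc18 protein of the lysosomal tethering complexes, averaged -0.01 ± 0.07 (SD, n = 2). Mal2, which takes part in transcytosis, differed in sign from its relative Mal: it read 2357 and 2775 units in the female and 2486 and 3029 in the male pools, control first, with log2 ratios of 0.21 and 0.30, averaging 0.26 ± 0.06 (SD, n = 2), and limma gave an adjusted p of 0.609. The difference between Mal and Mal2 was not tested.

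Promoters are shown for some of the members with the same sign on both arrays, to see whether they hold letters that nuclear receptors of the Pparg kind bind. The hexamer AGGTCA is the core of such elements. RefSeq (GRCm38.p6) held a promoter entry for 56 of the 72 genes, 68 entries in all, each running from 250 bases before to 50 after the transcript start. This core, searched on both strands, was in 6 of the 68 entries (8.82%) against 16.3% of all 32851 promoters. These belonged to Rab22a, Rab31, Rab32, Rab42, Rab43 and Sytl3. A direct repeat of the core spaced by 1 base, which contains the core, was in 0 of 68 and in 0.0396% of all promoters. For comparison, the E-box CACGTG was in 7 of 68 (10.3%) against 7.15%. The 250 bases upstream of the start are given 5′ to 3′ on the strand of the gene for Mal (chr2:127656696-127656945, minus), Rab20 (chr8:11478641-11478890, minus), Rab27a (plus, entry 1 at chr9:73044560-73044809 and entry 2 at chr9:73063898-73064147), Rab3b (chr4:108878820-108879069, plus), Rab17 (chr1:90967668-90967917, minus) and, for a match to the core, Sytl3 (chr17:6658809-6659058, plus), with matches to these letters in capitals:
Mal: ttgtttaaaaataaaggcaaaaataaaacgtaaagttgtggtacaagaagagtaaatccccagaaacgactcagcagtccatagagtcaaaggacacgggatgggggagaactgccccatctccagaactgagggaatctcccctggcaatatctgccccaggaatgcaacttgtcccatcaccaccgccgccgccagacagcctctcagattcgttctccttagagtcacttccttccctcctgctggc
Rab20: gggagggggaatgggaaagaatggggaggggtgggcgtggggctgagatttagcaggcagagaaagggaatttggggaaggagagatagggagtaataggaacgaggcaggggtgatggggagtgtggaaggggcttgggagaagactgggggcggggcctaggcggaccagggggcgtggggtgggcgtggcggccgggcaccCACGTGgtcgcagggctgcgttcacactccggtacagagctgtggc
Rab27a, entry 1: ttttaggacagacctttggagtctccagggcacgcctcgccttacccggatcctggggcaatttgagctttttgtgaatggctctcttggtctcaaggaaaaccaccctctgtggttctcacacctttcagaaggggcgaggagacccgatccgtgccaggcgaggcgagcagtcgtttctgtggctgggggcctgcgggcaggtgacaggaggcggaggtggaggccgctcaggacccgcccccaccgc
Rab27a, entry 2: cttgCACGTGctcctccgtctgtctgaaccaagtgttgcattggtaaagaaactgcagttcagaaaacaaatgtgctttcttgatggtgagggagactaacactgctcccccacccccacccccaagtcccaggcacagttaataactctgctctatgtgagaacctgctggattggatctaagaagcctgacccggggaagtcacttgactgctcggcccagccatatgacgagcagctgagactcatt
Rab3b: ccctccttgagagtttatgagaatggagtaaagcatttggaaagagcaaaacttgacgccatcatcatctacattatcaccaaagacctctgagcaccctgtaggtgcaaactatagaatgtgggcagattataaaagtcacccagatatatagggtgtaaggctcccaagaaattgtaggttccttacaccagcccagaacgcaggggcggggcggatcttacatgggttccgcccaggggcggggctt
Rab17: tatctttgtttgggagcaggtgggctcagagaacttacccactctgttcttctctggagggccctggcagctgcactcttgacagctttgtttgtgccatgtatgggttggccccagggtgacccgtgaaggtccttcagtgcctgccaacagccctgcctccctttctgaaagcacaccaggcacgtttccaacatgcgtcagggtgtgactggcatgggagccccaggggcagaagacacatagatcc
Sytl3: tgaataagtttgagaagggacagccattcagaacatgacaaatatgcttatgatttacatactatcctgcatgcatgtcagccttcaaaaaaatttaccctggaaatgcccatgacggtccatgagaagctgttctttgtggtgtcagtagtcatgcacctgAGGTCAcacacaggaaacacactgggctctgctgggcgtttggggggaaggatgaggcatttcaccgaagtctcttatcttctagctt
The Rab20 sequence and the second Rab27a sequence hold an E-box and the Sytl3 sequence the core, while those of Mal, Rab3b and Rab17 and the first of Rab27a hold neither. A match is a description of letters and not a binding site.

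The Rabs of regulated secretion, which act on granules and synaptic vesicles, held the largest positive mean of all members with normexp and loess. Rab3b read 229 and 467 units in the female control and Pparg-cKO pools and 345 and 459 in the male pools. Both Pparg-cKO pools were above both control pools, although the control pools also differed from each other. The probe (chromosome 4, 108613734 to 108613793, mm9) gave log2 ratios of 0.89 and 0.48, with a mean of 0.68 ± 0.29 (SD, n = 2), or 1.61-fold, and a limma adjusted p of 0.193. Over the alternatives this p ranged from 0.0448, without the normexp offset, to 0.590, with the deposited table. With median centring in place of loess, Rab3b was the 1 member past the fold rule, at 0.81 and 0.76.

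The other 5 Rabs of that list had smaller means. Rab3d, a granule Rab of secretory cells, read 440 and 494 units in the female and 426 and 617 in the male pools, control first. Its log2 ratios were 0.17 and 0.58, averaging 0.37 ± 0.29 (SD, n = 2), and limma gave an adjusted p of 0.561, and its second probe gave the same sign. Rab37, found on granules of mast cells and other secretory cells, was dim: it read 29.1 and 42.7 units in the female and 29.6 and 48.5 in the male pools, control first. Its log2 ratio averaged 0.44 ± 0.12 (SD, n = 2), with a limma adjusted p of 0.313, and a second probe, which overlaps the first nearly in full, gave 0.40. The 4 mast cell markers summed to 1820 and 2238 units in the female and male control pools and to 2280 and 2304 in the Pparg-cKO pools. On the female array all 4 read higher, with log2 ratios of 0.15 to 0.37. On the male array Kit gave 0.81, while Cma1, Cpa3 and Tpsb2 gave -0.04, -0.05 and -0.10. The part of these markers in the Rab37 value was not tested. Rab3c averaged -0.04 and Rab26 read under 10 units in every pool. Of the 6 genes, 4 read higher on both arrays, the dim Rab26 and Rab37 among them, and 0 read lower on both (26.6% and 26.2% of all genes), and the median log2 ratio was 0.22.

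Among the 9 Rabs of recycling and polarised transport, 6 read higher on both arrays and 1 lower, with a median log2 ratio of 0.12, where 26.6% and 26.2% of all genes did so. Rab17, a Rab of polarised epithelia that acts in apical recycling and transcytosis, read 22.2 and 41.2 units in the female and 25.6 and 49.5 in the male pools, control first. Both Pparg-cKO pools lay above both control pools. The log2 ratios were 0.49 and 0.66, with a mean of 0.58 ± 0.12 (SD, n = 2), or 1.49-fold, and a limma adjusted p of 0.168. This gene was too dim for the fold rule. Its second probe, dimmer still, gave 0.18 and 0.32. Rab25, the epithelial relative of Rab11, read 1689 and 1798 units in the female and 1513 and 1828 in the male pools, control first, with log2 ratios of 0.04 and 0.36. Rab4a, Rab10, Rab14 and Rab35, which work in recycling to the plasma membrane, averaged between 0.08 and 0.25, while Rab4b averaged -0.10 and Rab13 -0.19.

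The values of dim members depended on how the background was corrected. An offset of 50 units, added after normexp correction, shrinks the ratio of a probe whose own signal is of that order. Scanner-processed signals carry no such offset, and with them the log2 ratios of Rab17 were 0.90 and 0.96. It was then the 1 member past 1.5-fold on both arrays when the intensity threshold was left out, against 2.93% of all genes. The adjusted p of Rab17 in limma was 0.0159 without the offset and ranged from 0.0159 to 0.533 over the alternatives. Rab37 gave 0.55 and 0.72 with scanner-processed signals. No mean of a member bright enough for the fold rule moved by more than 0.08, the shift of Snx31.

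**Figure D3:**
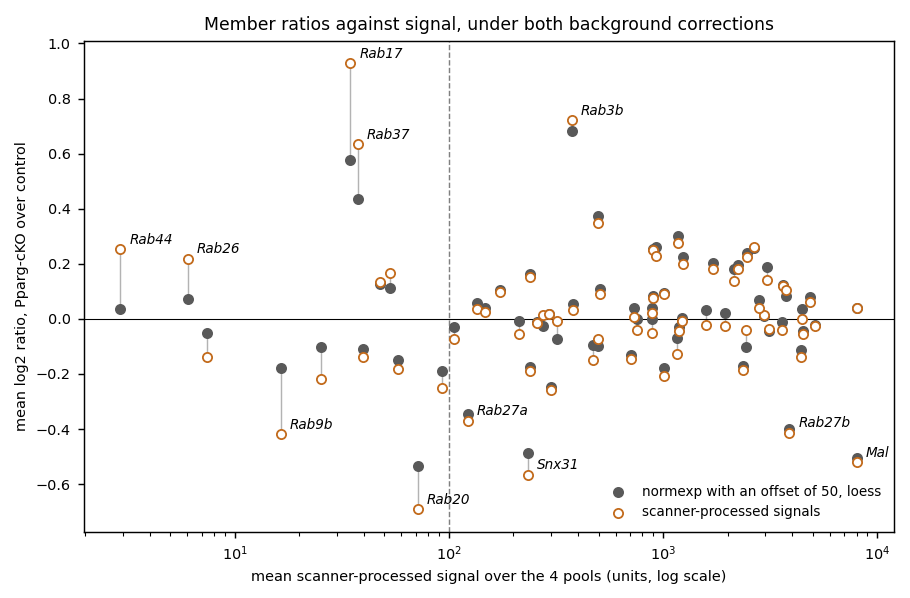
Mean log2 ratio of both arrays for each of the 72 genes against its mean scanner-processed signal over the 4 pools (log scale), with filled points for normexp with an offset of 50 and loess and open points for scanner-processed signals, joined by a line for each gene; the dashed line marks 100 units. The lines are longest at the dim end, where Rab17 moves from 0.58 to 0.93 and Rab37 from 0.44 to 0.63, while Mal and Rab27b keep their place.

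Early endosome Rabs, which control the fusion and sorting of newly internalised vesicles, gave no shared direction: 3 of 7 read higher and 3 lower on both arrays (42.9% each, against 26.6% and 26.2% of all genes), with a median log2 ratio of 0.05. Rab20, an endosome and phagosome Rab, had the largest negative mean of all 72 genes with normexp and loess. It read 93.4 and 49.3 units in the female and 82.7 and 60.1 in the male pools, control first, with both Pparg-cKO pools below both control pools. The log2 ratios were -0.67 and -0.40, averaging -0.53 ± 0.19 (SD, n = 2), and limma gave an adjusted p of 0.243, and the signal stayed under the 100 units of the fold rule. Rab5b read 1075 and 1117 units in the female and 1044 and 1473 in the male pools, control first, so that the male Pparg-cKO pool stood above the other 3. Its mean log2 ratio was 0.30 ± 0.38 (SD, n = 2) with a limma adjusted p of 0.713, and its 4 probes ran from -0.06 to 0.30. Rab5a and Rab5c averaged 0.18 and 0.07.

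The 3 remaining lists had medians within 0.07 of 0. The 11 Rabs of late endosomes and lysosome-related organelles, among them Rab7 and the melanosome Rabs Rab32 and Rab38, ranged from -0.18 to 0.22 with a median log2 ratio of -0.07, and 6 of them (54.5%) read lower and 1 (9.09%) higher on both arrays, against 26.2% and 26.6% of all genes. The 14 Rabs of the endoplasmic reticulum and Golgi apparatus ranged from -0.25 (Rab30) to 0.26 (Rab43) with a median of 0.01, and 6 read lower and 3 higher on both arrays. Rab1, the Rab of transport from the endoplasmic reticulum, read 7843, 7691, 7954 and 8576 units in the female control, female Pparg-cKO, male control and male Pparg-cKO pools, and Rab18 averaged 0.04. The 6 remaining Rabs (Rab12, Rab23, Rab28, Rab40b, Rab40c and Rab44) ranged from -0.01 to 0.20.

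The female and male arrays differed for several members. Of the 59 members bright enough, 5 were at least 1.2-fold lower on the female and at least 1.2-fold higher on the male array, and 0 showed the reverse. Across all genes bright enough 1.73% were opposite at this threshold, and 155 of these 243 genes ran in the same sense as the 5. More broadly, the male ratio exceeded the female ratio for 54 of the 72 members (75.0%), against 55.2% of all genes tested, with a median difference of 0.13 against 0.03 on the log2 scale. There was 1 array per sex, so neither comparison was tested.

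Rab15, an endosomal Rab of recycling that is best known in neurons, differed most with normexp and loess. Its ratios were -0.25 and 0.51 with the median over all probes and -0.20 and 0.64 with scanner-processed signals. In neither setting was Rab15 among the members opposite at 1.2-fold. It read 2265 and 1977 units in the female control and Pparg-cKO pools and 2175 and 3399 in the male pools, so that the male Pparg-cKO pool alone stood apart, with log2 ratios of -0.30 and 0.77. Rab11fip5 and Rab11fip1, which link Rab11 to cargo and motors, followed. Rab11fip5 read 1221 and 897 units in the female and 1155 and 1477 in the male pools, control first, with log2 ratios of -0.44 and 0.38. Rab11fip1 read 133 and 104 units in the female and 129 and 175 in the male pools, control first, with log2 ratios of -0.33 and 0.45. Sytl1 gave -0.37 and 0.37, and Rab3a, a Rab of synaptic vesicles, -0.34 and 0.37. A second, dimmer probe of Sytl1 gave -0.21 and 0.05. In each of the 5 the control pools were closer to each other than the Pparg-cKO pools were.

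Some cell type markers also had a negative female and a positive male ratio, 13 of 61 tested (21.3%), which was no more than the share of all genes (25.7%). They included 3 of 10 for urothelium and 2 of 5 for smooth muscle. Female and male log2 ratios were -0.86 and 0.35 for Krt5, -0.40 and 0.56 for Grhl3 and -0.28 and 0.52 for Krt8 in the urothelial list, and -0.37 and 0.11 for Cnn1 and -0.28 and 0.10 for Myh11 in the smooth muscle list. Cdh1 (0.07 and 1.10) and the mesenchymal Col1a1 (0.14 and 1.07) were higher on both arrays, mainly among males. The other mesenchymal markers, Col3a1, Dcn, Pdgfra and Vim, did not share this and gave -0.18 to 0.04 on the male array. Of the 4 skeletal muscle markers, 3 read lower on both arrays, with -0.50 and -0.95 for Ckm, -0.35 and -0.43 for Tnnt3 and -0.04 and -0.39 for Acta1, and the adipocyte marker Adipoq read 85.9 units in the female control pool against 8.24 to 13.1 in the other 3 pools. Liver markers set the male control pool apart: Afp read 1150 units there against 417 to 487 in the other 3 pools, and Alb 1540 against 598 to 725. Of the 10 urothelial markers, 2 read higher on both arrays, Cdh1 and Epcam (0.41 and 0.48), 5 read lower on both, and none was at 0. The summed signal was 89848 to 103337 units in the control pools and 69349 to 83875 in the Pparg-cKO pools. That sum includes Upk1b, Upk2 and Upk3a and is not a measure of urothelial cells alone. Upk3a gave 36165 to 41122 units of it in the control pools and 31198 to 32498 in the Pparg-cKO pools. Among the 6 neuron markers, 3 read lower on both arrays and 0 higher on both. The 3 were Stmn2 (-0.19 and -0.46), Uchl1 (-0.63 and -0.19) and Elavl4 (-0.09 and -0.32), while Snap25 gave 0.23 and -0.18. The part of the cells these markers stand for in the values of Rab15, Rab11fip1, Rab11fip5, Sytl1 and Rab3a was not tested.

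**Figure D4:**
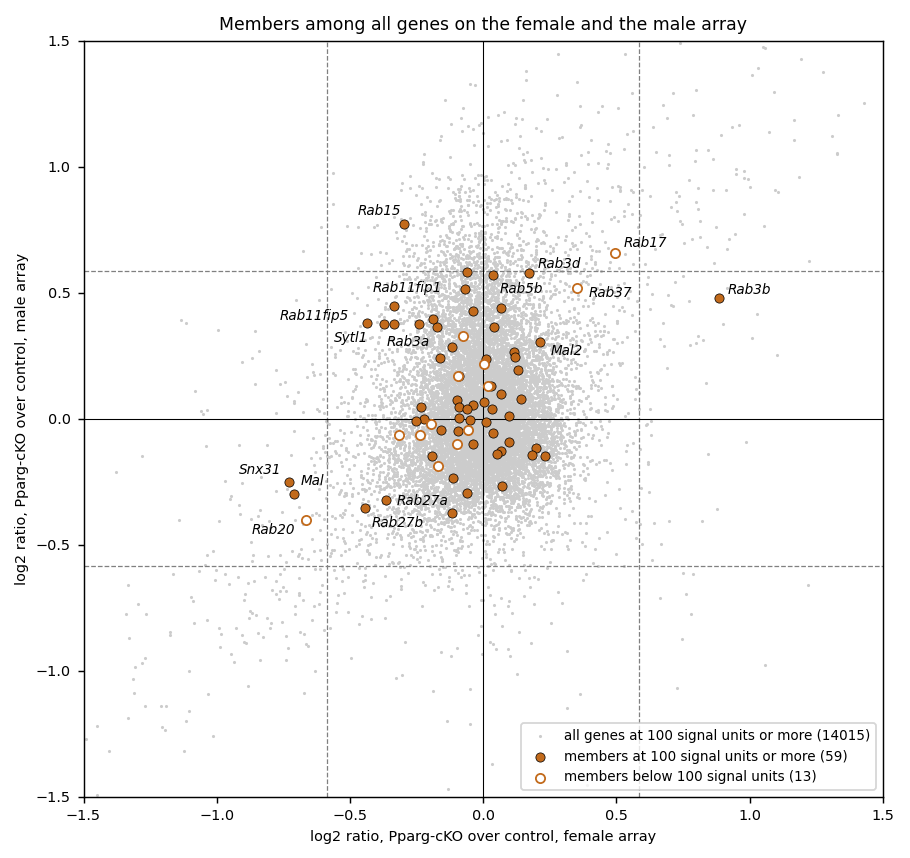
Log2 ratio on the male array against that on the female array, with all 14015 genes at 100 signal units or more in grey, members at that brightness as filled points (59) and dimmer members as open points (13); dashed lines mark 1.5-fold, and 93 genes lie outside the axes. No filled member reaches the upper right or lower left corner, and the upper left quadrant holds Rab15, Rab11fip1, Rab11fip5, Sytl1 and Rab3a.

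Genes that work with Rabs but are not members by symbol were summarised by role, 123 of 125 listed genes being on the arrays. Of these 114 were bright enough, and 4 of them passed the fold rule (3.51% against 1.84% of all genes), all lower. The MAL family and plaque cargo list held 3 of these 4, all uroplakins. Uroplakin genes were listed with their lower expression in these ureters already known, so the higher share is not a result about partner genes. In limma 1 of the 123 was called (0.813%), a share near the 0.751% of all genes. The Rab regulators (20 escort, GDI, exchange factor and GTPase-activating genes), 13 effectors of Rab11 and Rab5 with unconventional myosins, 9 exocyst genes, 9 HOPS, CORVET and CHEVI tethering genes and 27 retromer and sorting nexin genes gave 0 genes past the fold rule and median log2 ratios between -0.07 and 0.08. The largest mean of each was that of Tbc1d4 (0.28), Myo5c (0.51), Exoc7 (-0.22), Vps16 (0.12) and Snx27 (-0.23). The 7 Rab27 effectors outside the Sytl family were mostly dim, with 1 bright enough. That gene, Rims1, which encodes a scaffold of synaptic release sites, read 285 and 226 units in the female and 433 and 199 in the male pools, control first, a mean log2 ratio of -0.68 ± 0.50 (SD, n = 2). For Rims1 limma gave an adjusted p of 0.375, and the median over all its probes gave a mean of -0.34.

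The 4 partner genes past the fold rule were a SNARE and 3 uroplakins. Stx11, a syntaxin of late endosomes and secretory granules, read 266 and 106 units in the female and 236 and 125 in the male pools, control first. Both Pparg-cKO pools were well under both control pools, and the mean log2 ratio was -1.01 ± 0.23 (SD, n = 2), or 2.02-fold, with a limma adjusted p of 0.0580, which ranged from 0.00197 to 0.533 over the alternatives. The other 27 SNARE and Munc18 genes on the arrays did not pass the fold rule. The plaque proteins Upk3b, Upk1a and Upk1b, the cargo of fusiform vesicles, had mean log2 ratios of -1.67 ± 0.03, -1.51 ± 0.56 and -1.02 ± 0.40 (SD, n = 2), and Upk3b fell with a limma adjusted p of 0.00884, which ranged from 3.39e-05 to 0.533 over the alternatives. These 3 means were further from 0 than those of Rab27b, Mal and Snx31, the differences between genes not being tested. Upk2 averaged -0.51, close to Mal, and Upk3a averaged -0.24, closer to 0 than Rab27b, and neither passed either rule.

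**Figure D5:**
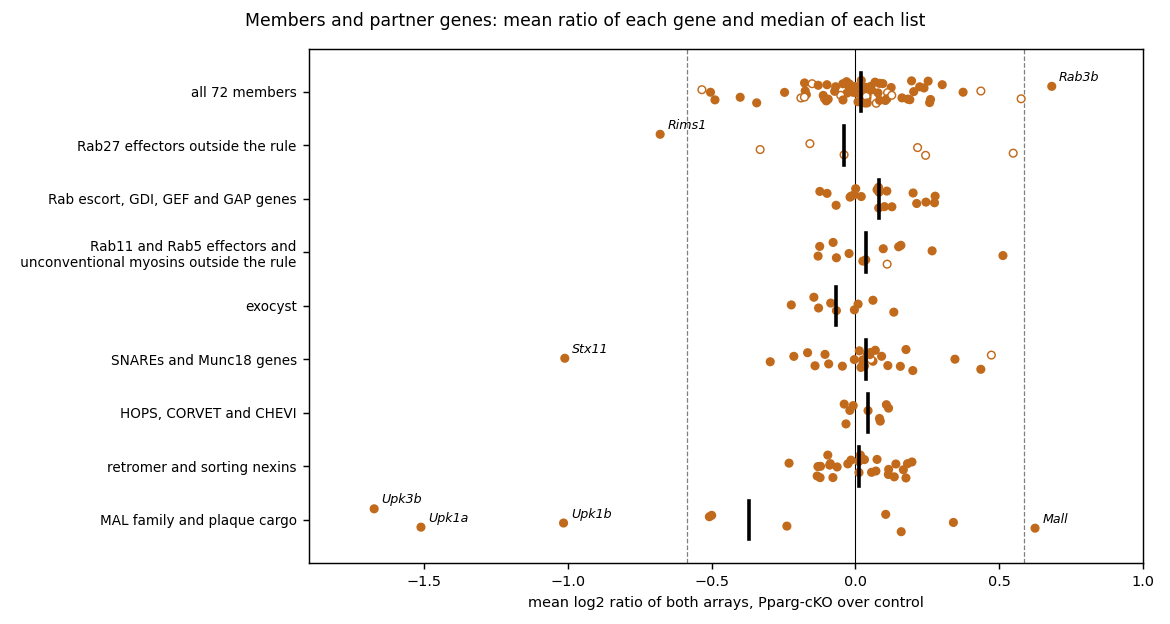
Mean log2 ratio of both arrays for each of the 72 members and for each gene of the 8 partner lists, with a black bar at the median of each list, open points for genes under 100 signal units, dashed lines at 1.5-fold and names for genes beyond it. Members and most partners cluster around 0, and Upk3b, Upk1a, Upk1b and Stx11 stand out on the negative side.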

How the data were processed

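RNA from 4 ureter pools was measured on 2 two-colour Agilent arrays with exchanged dyes. Per the file headers, the deposited scanner files gave linear spot intensity (mean signal, local median background and a processed signal corrected and dye-normalised by Agilent Feature Extraction 10.7.3.1), with flags for each spot. They also held, per the file headers, a log10 ratio of red over green that was not used in the tests. The deposited value table of the authors held a signed fold change per probe, entered here as a score, with a fall written as a negative number and a median of 1 in both columns. It was matched to the ratio of processed signals with a floor of 6 units. Its Pearson correlation across probes with log2 red over green was 0.989 on replicate 1 and -0.993 on replicate 2, which gives the direction used. Its centring stays unknown.

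Mean signals were corrected with normexp (offset 50) and normalised by loess within arrays in limma 3.58.1 (R 4.3.3), without outlier-flagged spots (2.87% and 3.24%). Spots of a probe were averaged and the brightest probe stood for its gene. The printed signals are scanner-processed, so a ratio from loess can differ slightly from theirs. limma fitted the mean of both arrays against 0, two-sided, and adjusted p by Benjamini-Hochberg over the 22499 genes well above background in at least 1 pool on both arrays; residual degrees of freedom were 1. The fold rule took 1.5-fold in the same direction on both arrays and 100 signal units in the brighter pool on both. The fitting code was tested on simulated data. All 72 members were tested, 71 matched RefSeq by transcript, and 1 current symbol differs (Rab1, now Rab1a). Exon and UTR positions were not analysed here. Named were all members of the fusiform vesicle list, members past a rule or opposite on the arrays, the 5 largest mean rises and falls, and per partner list those past a rule or else the largest mean; other members named as examples were chosen after their values were seen. Members and lists were chosen with earlier results of these data known. The number of arrays limits the precision.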

Additional observations from a re-analysis of the deposited data

Results flagged for a closer look

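With normexp and loess the arrays disagreed in 5 members: they had ratios of opposite sign on the female and the male array, each at least 1.2-fold from equality. Only Rab11fip1 and Rab11fip5 met this rule under every setting. The male minus female difference in log2 ratio was 1.07 for Rab15, 0.82 for Rab11fip5, 0.78 for Rab11fip1, 0.75 for Sytl1 and 0.71 for Rab3a. In all 5 the Pparg-cKO pool read lower than its control among females and higher among males. With 1 array per sex the difference was not tested, and sex, dye orientation and array cannot be told apart.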

How the results depend on the processing

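With 1 array per sex and 1 residual degree of freedom, moderate differences of single members could not be resolved, and dim members (13 of 72 under 100 units on an array) depended most on the background correction. The count of 0 members past the fold rule became 1 with median centring (Rab3b), 1 with scanner-processed signals and no intensity threshold (Rab17) and 4 at 1.2-fold, the last 2 settings chosen after seeing the data. It was 1 on the male array alone (Rab15) and 3 on the female array alone (Mal, Snx31 and Rab3b). It stayed 0 without the normexp offset, with scanner-processed signals, the deposited table, the median over all probes, no filter on dim probes, a 2-fold threshold and a threshold of 200 units. The count of members called in limma was 2 without the offset (Rab17 and Rab3b) and 0 under the other 5 alternatives, while over all genes the calls numbered 169, against 571 without the offset, 94 with no filter on dim probes and 0 with the deposited table. The count of members opposite on the arrays was 3 with scanner-processed signals, 3 with the deposited table and 3 with the median over all probes, and 5 to 7 otherwise, with Rab11fip1 and Rab11fip5 in it under every setting. Rab15 was lost in each setting that gave 3, Rab3a with scanner-processed signals and the deposited table, and Sytl1 with the median over all probes. From a single array, the median log2 ratio over members ranged from -0.061 (female) to 0.051 (male), and that of the fusiform vesicle list from -0.17 to 0.036. Of 222 values for 37 named genes under 6 alternatives, 10 changed sign, all of them within 0.1 of 0: with median centring Rab11fip5 was 0.029, Rab8a 0.077, Sytl4 0.0032 and Vps33a 0.088; with scanner-processed signals Rab8b was -0.027 and Sytl1 -0.039; with the deposited table Rab8b was -0.0089 and Sytl1 -0.037; and Sytl1 was -0.0096 without the offset and -0.040 with the median over all probes. The limma fit was itself paired, since each ratio compares the pools of 1 array. No paired analysis was possible beyond it because the replicate number is the array, so that a further block cannot be fitted.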
